A study of Rattus norvegicus with 18 samples.

Results

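The interaction of phenylephrine (PE) and 50 µM Senexin A is the amount by which a gene's response to PE in the presence of the inhibitor departed from its response without it. It was taken on the log2(FPKM + 1) scale as the mean of cells given PE with 50 µM Senexin A minus the mean of cells given 50 µM Senexin A alone, less the same difference between PE and vehicle. It used 12 of the 18 libraries of the series, 3 in each of 4 groups. Of the 17303 rows of the deposited gene table, 10478 reached 1 FPKM in at least 3 libraries and were tested. A negative interaction means that PE raised a gene less, or lowered it more, when 50 µM Senexin A was present.

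All groups were cultured ventricular myocytes of Wistar rats taken 3 days after birth. They had been kept in cytosine arabinoside (AraC), which kills dividing cells, for 48 h and without serum for 24 h, and were then treated for 48 h with fresh medium at 24 h. The 4 groups received 10 µM PE with 50 µM Senexin A, 50 µM Senexin A without PE, 10 µM PE without Senexin A, or vehicle. The other 6 libraries came from cells given 10 µM Senexin A with or without PE. The cells were not sorted, so each library holds the RNA of a mixed culture, in which fewer cells of a type and less RNA per cell cannot be told apart. Senexin A was the only agent aimed at CDK8 in these libraries, which do not measure the activity of the kinase. The labels do not say whether replicates were separate preparations. The p-values are therefore set against variation among these libraries that could be technical only.

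PE activates alpha1-adrenergic receptors, which signal through Gq, phospholipase C, protein kinase C and MAP kinases. In cultured neonatal cardiomyocytes this makes the cells grow and switches on the fetal gene programme, with natriuretic peptides, skeletal alpha-actin and beta myosin heavy chain as its classical readouts. CDK8 and its paralog CDK19 are the kinases of the Mediator kinase module, which they form with cyclin C, MED12 and MED13, and Senexin A inhibits their kinase activity.

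Summed FPKM ran from 610324 to 910958 per library, and libraries of one group correlated over genes at 0.9863 to 0.9923. The sum was 790067 to 897706 in PE with 50 µM libraries and 755249 to 826406 in 50 µM libraries. In PE libraries it was 810428 to 853958, and in vehicle libraries 610324 to 660958, below every other library. How far these sums bear on the interactions was not tested. Relative depth, read from the value of a single fragment, ran from 0.833 to 1.109, and the absolute number of reads per library is unknown. Ventricular myocyte markers (Myl2, Myh6, Tnnt2, Actn2 and 6 more) summed to 53825 to 68083 FPKM in PE with 50 µM libraries, 40153 to 62474 in 50 µM libraries, 97465 to 116078 in PE libraries and 37653 to 52930.1 in vehicle libraries. Fibroblast markers summed to 643 to 1247, 1005 to 1354, 1272 to 2008 and 1873 to 3146 FPKM in the same order of groups. No marker gene of either cell type was at the 0.01 FPKM floor of the table in all 12 libraries.

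PE changed fewer genes in the presence of 50 µM Senexin A than in its absence, and where the 2 responses differed the interaction was more often negative than positive. In limma with Benjamini-Hochberg adjustment over the 10478 genes, the interaction passed an adjusted p of 0.05 for 734 genes (7.01% of those tested). It was negative for 499 of them (4.76%) and positive for 235 (2.24%), and 121 and 43 of these differed at least 2-fold. With the replicate number as a block the count was 1690, of which 1036 were lower and 654 higher, and all 734 were among them. Leaving out a single library gave 392 to 921 genes. It fell by more than 1.5 times without vehicle replicate 3 (392), PE replicate 1 (400), PE with 50 µM replicate 1 (428), 50 µM replicate 2 (448), PE replicate 2 (450), PE with 50 µM replicate 3 (477) or vehicle replicate 2 (480).

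The 2 responses behind the interaction share no library. With 50 µM Senexin A, 1500 genes passed the test for PE (14.3%), 975 higher (9.31%) and 525 lower (5.01%). Without it, 3205 genes passed (30.6%), 1874 higher (17.9%) and 1331 lower (12.7%). In both responses 566 genes rose and 280 fell, which is 56.4% of the genes called with the inhibitor and 26.4% of those called without it. Only 9 genes rose with PE under 50 µM and fell without it, and 26 did the reverse. Read the other way, 50 µM Senexin A changed 5939 genes in the presence of PE (56.7%), 3065 higher (29.3%) and 2874 lower (27.4%). In the absence of PE it changed 6361 (60.7%), 3192 higher (30.5%) and 3169 lower (30.2%). Across the 10478 genes the responses to PE had a Pearson correlation of 0.535, given as a description, since genes are not independent replicates.

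**Figure D1:**
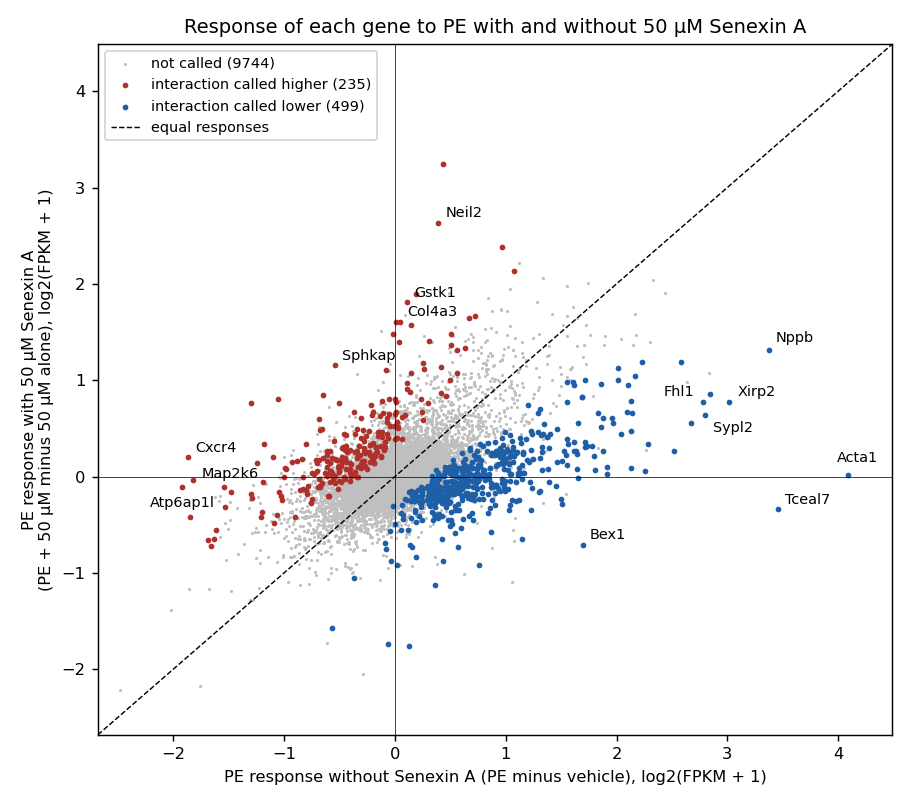
Response of each of the 10478 tested genes to PE with 50 µM Senexin A (vertical axis) and without it (horizontal axis), both as differences of group means on log2(FPKM + 1); points below the dashed line have a negative interaction. The 499 genes called lower lie mainly to the right, where PE raised them without inhibitor and hardly moved them with it, and Acta1 and Tceal7 lie farthest out.

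The direction of the interaction followed the direction of the PE response measured at 10 µM Senexin A, in libraries that enter neither response. The 1979 genes that rose with PE at 10 µM (18.9% of those tested) had a median PE response of 0.22 log2 at 50 µM and 0.38 without inhibitor. Their median interaction was -0.14, and 321 of them (16.2%) were called lower against 47 (2.37%) called higher. The 1429 genes that fell with PE at 10 µM (13.6%) had median responses of -0.21 at 50 µM and -0.37 without inhibitor. Their median interaction was 0.16, with 93 called higher (6.51%) and 6 called lower. In both sets the median response at 50 µM had the sign of that without inhibitor and a smaller size. Among the 246 genes that rose at least 2-fold with PE at 10 µM the medians were closer, at 0.96 log2 with 50 µM and 1.04 without, 56.9% had a negative interaction beside 67.6% of all 1979, and 48 were called lower (19.5%) and 14 higher (5.69%). The 117 that fell at least 2-fold had medians of -0.54 at 50 µM and -0.91 without.

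Skeletal alpha-actin, Acta1, the fetal actin isoform of the heart and a standard marker of PE-induced hypertrophy, had the most negative interaction of all genes tested. It stood at 1534, 1627 and 1309 FPKM in PE with 50 µM libraries, 1333, 1683 and 1396 in 50 µM libraries, 3395, 3002 and 2837 in PE libraries, and 219, 169.8 and 155 in vehicle libraries. Of these 4 groups the first 2 overlapped, PE alone lay above the other 3 and vehicle below them. PE with 10 µM libraries, at 6075, 5009 and 5195 FPKM, stood above PE alone. The PE response was 0.02 ± 0.18 log2 (SE; limma adjusted p = 0.96) with 50 µM and 4.09 ± 0.18 (adjusted p = 1.1e-09) without, an interaction of -4.07 ± 0.25 (adjusted p = 1.3e-07). With the inhibitor Acta1 fell by 1.05 log2 in the presence of PE and rose by 3.02 log2 in its absence, so both ends of the response moved toward each other.

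Acta1 (chr19:67389898-67392911 in rn5, the build of the table) also carries the best known motifs of this gene class in its promoter. Windows of 250 bases before the start are shown for low-interaction genes holding a serum response factor (SRF) CArG box or TEAD-binding MCAT element. They are also shown for Srf itself and for Sphkap, a gene with a high interaction that holds none of the 6 motifs searched. The windows were chosen by their matches, so they do not contrast low with high genes. Itgb8 and Tmem51, among the 12 highest interactions, hold MCAT. Casq1, Sypl2 and Tppp, among the 12 lowest, hold none of the 6 motifs. The sequences are those of RefSeq in the GRCr8 build, written 5′ to 3′ on the gene's strand. Capitals mark matches on either strand to the CArG box, to MCAT (searched as CATTCC) or to the GATA site.
Acta1, chr19:68784195-68784444, minus strand, CArG at -94 and MCAT at -67: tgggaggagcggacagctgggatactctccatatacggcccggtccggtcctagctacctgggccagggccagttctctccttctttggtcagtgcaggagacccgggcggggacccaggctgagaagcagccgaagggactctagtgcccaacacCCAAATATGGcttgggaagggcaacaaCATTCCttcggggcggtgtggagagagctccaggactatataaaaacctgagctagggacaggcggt
Myl3, chr8:119616844-119617093, plus strand, MCAT at -189 and -161 and CArG at -97: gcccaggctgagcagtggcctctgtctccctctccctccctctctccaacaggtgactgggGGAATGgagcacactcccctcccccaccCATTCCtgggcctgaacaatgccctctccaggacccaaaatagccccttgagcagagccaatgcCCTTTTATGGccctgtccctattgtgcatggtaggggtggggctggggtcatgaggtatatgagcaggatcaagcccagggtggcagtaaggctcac
Fhl1, chrX:139638246-139638495, plus strand, CArG at -102: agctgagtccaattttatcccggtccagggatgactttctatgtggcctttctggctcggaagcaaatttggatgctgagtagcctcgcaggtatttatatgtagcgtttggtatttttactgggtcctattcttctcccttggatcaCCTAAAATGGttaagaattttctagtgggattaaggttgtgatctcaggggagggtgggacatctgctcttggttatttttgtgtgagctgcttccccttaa
Fbxl22, chr8:75971715-75971964, minus strand, CArG at -204 and MCAT at -40: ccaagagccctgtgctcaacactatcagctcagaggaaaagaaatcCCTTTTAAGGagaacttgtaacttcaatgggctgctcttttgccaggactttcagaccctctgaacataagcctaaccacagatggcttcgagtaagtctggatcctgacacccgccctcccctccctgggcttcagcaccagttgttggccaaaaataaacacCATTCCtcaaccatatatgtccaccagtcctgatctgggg
Nppb, chr5:163699758-163700007, plus strand, MCAT at -131 and GATA at -110: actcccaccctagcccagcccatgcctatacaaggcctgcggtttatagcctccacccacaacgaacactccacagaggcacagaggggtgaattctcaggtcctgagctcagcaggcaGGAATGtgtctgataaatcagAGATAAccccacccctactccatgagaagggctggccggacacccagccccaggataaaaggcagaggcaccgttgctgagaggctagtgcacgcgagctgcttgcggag
Srf, chr9:21923826-21924075, plus strand, CArG at -81 and -61: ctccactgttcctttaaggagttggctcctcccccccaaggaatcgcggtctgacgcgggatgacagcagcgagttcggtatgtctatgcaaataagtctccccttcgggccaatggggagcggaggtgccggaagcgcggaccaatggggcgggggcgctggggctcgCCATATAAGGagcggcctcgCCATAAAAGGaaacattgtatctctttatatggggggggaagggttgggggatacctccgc
Sphkap, chr9:92105626-92105875, minus strand, no match: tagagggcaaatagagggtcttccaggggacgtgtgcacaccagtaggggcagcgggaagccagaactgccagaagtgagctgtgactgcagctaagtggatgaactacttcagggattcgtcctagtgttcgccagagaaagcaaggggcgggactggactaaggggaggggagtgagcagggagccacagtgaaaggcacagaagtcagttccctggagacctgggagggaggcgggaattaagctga
Positions are those of the first base of each match, counted back from the start of the gene.

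Such a window was given for 8014 of the 10478 tested genes. A CArG match lay in 11 of the 385 windows of genes with a called negative interaction (2.86%), in 0 of the 181 windows of genes with a called positive one, in 96 of all 8014 (1.2%) and in 412 of the 27457 rat promoters of the table (1.5%). An MCAT match lay in 13.5% of the lower windows, 12.2% of the higher windows, 10.0% of all tested and 11.8% of all promoters. The AP-1 site (TGANTCA) was in 5.19%, 3.87%, 4.22% and 6.36% of the same sets. The GATA site, with the letters AGATAA, was in 3.38%, 3.31%, 5.27% and 10.0%. The ATF4-CHOP element was in 1.82%, 1.66%, 1.63% and 3.27%, and the sterol regulatory element in 2.08%, 0%, 1.1% and 0.976%. These shares are descriptions of letters within 250 bases, and a match is not a bound site.

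Brain natriuretic peptide, Nppb, a hormone released by stretched and hypertrophic myocytes, kept a PE response at 50 µM, but a smaller one. Its level was 3451, 3929 and 3027 FPKM in PE with 50 µM libraries, 1254, 1838 and 1147 in 50 µM libraries, 5434, 5318 and 4911 in PE libraries, and 923, 468 and 295 in vehicle libraries. No group overlapped another. PE raised it by 1.32 ± 0.33 log2 with 50 µM (limma adjusted p = 0.013) and by 3.37 ± 0.33 without (adjusted p = 2.1e-06), an interaction of -2.05 ± 0.46 (adjusted p = 0.014, and 0.0602 after quantile normalization). Atrial natriuretic peptide, Nppa, rose by 2.84 log2 without inhibitor (adjusted p = 0.00025), and its response with 50 µM was 1.08 (adjusted p = 0.13). Its interaction of -1.76 ± 0.64 did not pass (adjusted p = 0.11), with vehicle libraries at 9359, 4409 and 1535 FPKM. It passed with the replicate block (adjusted p = 0.0253) and without vehicle replicate 1 (adjusted p = 0.014).

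Xirp2, an actin-binding repeat protein of the intercalated disc, followed another course. It stood at 29.1, 21.8 and 24.2 FPKM in PE with 50 µM libraries, 10.6, 16.3 and 16.1 in 50 µM libraries, 235, 262 and 198 in PE libraries, and 43.1, 22.9 and 21.3 in vehicle libraries. With both agents it therefore overlapped the vehicle level, and PE alone stood apart from the rest. The interaction was -2.24 ± 0.37 log2 (limma adjusted p = 0.0023), from a PE response of 0.78 (adjusted p = 0.06) with 50 µM and 3.01 (adjusted p = 7.9e-07) without. Sypl2, a synaptophysin-like protein of the muscle triad, showed the same order, with means of 2.68 ± 0.827 FPKM in PE with 50 µM cells, 1.37 ± 0.582 in 50 µM cells, 29.5 ± 2.83 in PE cells and 3.41 ± 0.835 in vehicle cells (SD, n = 3 each). Tceal7, a small transcription elongation factor A-like protein, had an interaction of -3.79 ± 0.42 (adjusted p = 0.00013), and the secreted metalloprotease gene Adamts19 one of -2.04 ± 0.18 (adjusted p = 8.9e-06). Both were below 2 FPKM in every 50 µM library, with or without PE, so the log2(FPKM + 1) scale understates how far they changed.

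Fhl1, a LIM-domain protein of the sarcomere that takes part in hypertrophic stretch signalling, stood at 1004, 1293 and 1050.3 FPKM in PE with 50 µM libraries, 549, 724 and 678 in 50 µM libraries, 2739, 2757 and 2469 in PE libraries, and 449.7, 342 and 368 in vehicle libraries. The groups did not overlap, and the step between PE and no PE was smaller with the inhibitor. Its interaction was -2.01 ± 0.20 log2 (limma adjusted p = 3.3e-05). The other genes among the 12 lowest were Casq1, the skeletal calsequestrin that binds calcium in the sarcoplasmic reticulum (-2.11), Scn3b, a sodium channel beta subunit (-1.99), the tubulin-polymerizing protein gene Tppp (-2.2), the Yip1-family gene Yipf7 (-2.25) and the row named Bex1 (-2.4). All of them had the same sign in each of the 3 replicate numbers, whose values average to the interaction by which they were chosen. Casq1 lost its call without PE replicate 1 (adjusted p = 0.062), vehicle replicate 2 (0.055) or vehicle replicate 3 (0.0541).

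In the Bex1 row PE had opposite effects with and without the inhibitor. It held 49.6, 55.5 and 74.1 FPKM in PE with 50 µM libraries, 73.9, 90.9 and 134 in 50 µM libraries, 103, 128 and 153 in PE libraries, and 42, 38.2 and 35 in vehicle libraries. With PE it fell by 0.71 ± 0.22 log2 under 50 µM (limma adjusted p = 0.043), where the groups overlapped narrowly, and rose by 1.70 ± 0.22 without (adjusted p = 3.7e-05). Bex1 encodes a small adaptor protein, and Bex genes are known from the X chromosome, whereas the table places this row on chromosome 1, so its identity is uncertain.

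**Figure D2:**
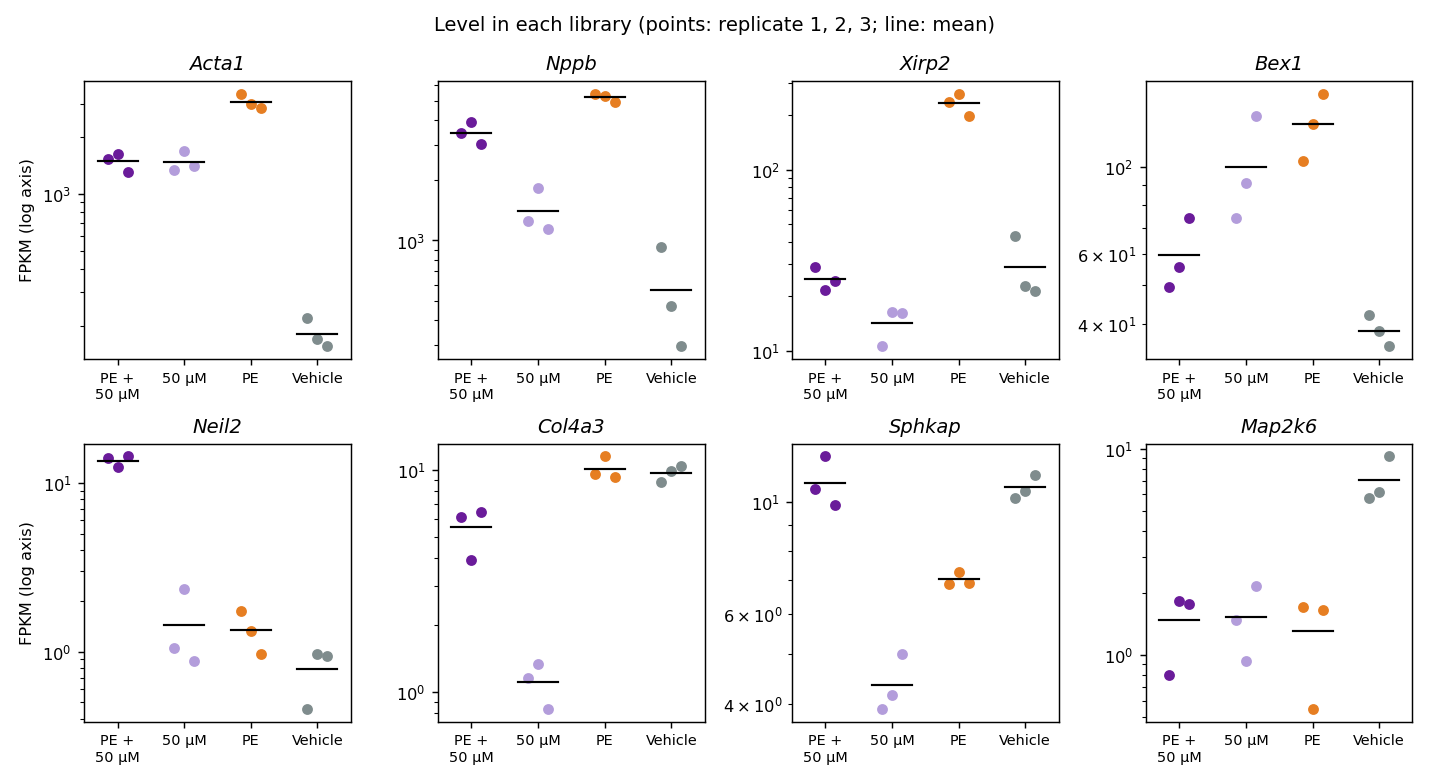
FPKM of 8 genes in each library (points, replicates 1 to 3 from left to right; line, mean of 3; log axis, with its own range in each panel) in PE with 50 µM Senexin A, 50 µM alone, PE alone and vehicle. Acta1 has the same level with and without PE at 50 µM, Xirp2 stands out in PE alone, Neil2 stands out in PE with 50 µM, and Sphkap is lowest in 50 µM alone.

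Among the positive interactions, Neil2, a DNA glycosylase of base excision repair, was the highest of the genes with a row and locus of their own. It stood at 14, 12.4 and 14.4 FPKM in PE with 50 µM libraries, 1.05, 2.35 and 0.88 in 50 µM libraries, 1.74, 1.33 and 0.962 in PE libraries, and 0.456, 0.964 and 0.941 in vehicle libraries. The combination lay far above the other 3 groups, which overlapped. PE raised it by 2.64 ± 0.20 log2 with 50 µM (limma adjusted p = 5.4e-07), against 0.39 without (adjusted p = 0.14), an interaction of 2.24 ± 0.28 (adjusted p = 0.00029). Gstk1, a mitochondrial and peroxisomal glutathione transferase, stood at 207, 317 and 261 FPKM in PE with 50 µM libraries, 69.9, 70.5 and 78.3 in 50 µM libraries, 15.7, 12.4 and 11.5 in PE libraries, and 12.5, 10.7 and 13.1 in vehicle libraries. The 2 groups without inhibitor overlapped, and its interaction was 1.70 ± 0.26 (adjusted p = 0.0014). The row of Nap1l5 had a higher value than Neil2 (2.81 ± 0.17, adjusted p = 1.3e-07), but it shares its locus with Herc3, whose interaction was -0.01; it was picked out after its value was seen.

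Other genes rose with PE under 50 µM Senexin A and did not pass for PE without it. Slc2a1, the glucose transporter GLUT1, averaged 133 ± 12.7 FPKM in PE with 50 µM cells, 61.1 ± 0.778 in 50 µM cells, 23.5 ± 2.73 in PE cells and 25.1 ± 5.15 in vehicle cells (SD, n = 3 each), an interaction of 1.18 ± 0.18 log2 (limma adjusted p = 0.0011). Itgb8, the beta8 integrin subunit, which partners alpha V in activating latent TGF-beta, averaged 5.2 ± 1.32, 1.2 ± 0.172, 1.43 ± 0.519 and 1.43 ± 0.259 FPKM in the same order of groups, an interaction of 1.49 ± 0.26 (adjusted p = 0.0034). Nfe2, a basic leucine zipper factor of the NRF2 family, was at 0.01 to 0.457 FPKM in all PE and vehicle libraries and at 5.94, 5.65 and 9.76 in PE with 50 µM libraries. Its call (1.71 ± 0.41, adjusted p = 0.022) was lost at a pseudocount of 0.1 (adjusted p = 0.209) and without PE replicate 1 (0.0586), PE with 50 µM replicate 3 (0.0595) or 50 µM replicate 2 (0.058). Col4a3, a collagen IV chain of basement membranes, reached a positive value in another way. It stood at 6.1, 3.91 and 6.49 FPKM in PE with 50 µM libraries, 1.16, 1.34 and 0.836 in 50 µM libraries, 9.53, 11.5 and 9.28 in PE libraries, and 8.86, 9.93 and 10.4 in vehicle libraries, so 50 µM alone was lowest and PE with 50 µM lay between it and the groups without inhibitor.

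A further set fell with PE in the absence of the inhibitor and not in its presence. Map2k6, the MAP kinase kinase that activates p38, stood at 0.796, 1.83 and 1.77 FPKM in PE with 50 µM libraries, 1.48, 0.935 and 2.15 in 50 µM libraries, 1.71, 0.547 and 1.66 in PE libraries, and 5.77, 6.14 and 9.17 in vehicle libraries. Only vehicle stood apart, and the 3 other groups overlapped. The interaction was 1.79 ± 0.37 log2 (limma adjusted p = 0.0096), with a PE response of -0.03 (adjusted p = 0.96) at 50 µM and -1.82 (adjusted p = 0.00011) without. Stxbp6, a syntaxin-binding protein of vesicle fusion, was instead held near the vehicle level. It averaged 40.7 ± 7.24 FPKM in PE with 50 µM cells, 31.7 ± 1.22 in 50 µM cells, 14.5 ± 3.01 in PE cells and 33.9 ± 4.83 in vehicle cells, an interaction of 1.52 ± 0.20 (adjusted p = 0.0004). PE alone was also lowest for Gja1, connexin 43 of the gap junction, at 472 ± 42.8, 521 ± 50.9, 228 ± 9.45 and 413 ± 7.48 FPKM in the same order of groups (interaction 0.71 ± 0.14, adjusted p = 0.0055). There 50 µM alone was above vehicle by 0.33 ± 0.10 log2 (adjusted p = 0.0073). Cdkn1c, the CDK inhibitor p57, likewise lowest in PE alone, averaged 25.6 ± 1.95, 29 ± 5.05, 12.4 ± 2.82 and 35.9 ± 4.07 FPKM, with vehicle highest (1.32 ± 0.26, adjusted p = 0.0074). Also among the 12 highest were Cxcr4, the chemokine receptor for CXCL12 (2.07), Abcg1, a cholesterol exporter (2.06), and Atp6ap1l, related to a proton pump accessory subunit (1.81). Cxcr4 lost its call without 50 µM replicate 3 (adjusted p = 0.0505) or vehicle replicate 3 (0.0541).

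Sphkap and Tmem51 had called PE responses of opposite sign. Sphkap, an anchoring protein of protein kinase A, stood at 10.6, 12.3 and 9.85 FPKM in PE with 50 µM libraries, 3.9, 4.15 and 5.01 in 50 µM libraries, 6.88, 7.26 and 6.93 in PE libraries, and 10.2, 10.5 and 11.3 in vehicle libraries. PE with 50 µM overlapped vehicle, and each agent alone lay below both. PE raised it by 1.15 ± 0.10 log2 with 50 µM (limma adjusted p = 3.2e-06) against -0.54 ± 0.10 without (adjusted p = 0.0012), an interaction of 1.69 ± 0.15 (adjusted p = 8.9e-06). Tmem51, a transmembrane protein, averaged 41.7 ± 3.47, 22.9 ± 3.32, 29.7 ± 3.99 and 47.1 ± 4.56 FPKM in the same order of groups (SD, n = 3 each), an interaction of 1.5 ± 0.19 (adjusted p = 0.0004).

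Calls among contractile and fetal genes were negative. Of 23 tested sarcomere and Z-disc genes, 8 had a called negative interaction and 0 a positive one, with a median interaction of -0.57 beside 0.03 over all genes tested. Their median PE response was 0.25 log2 with 50 µM and 0.90 without, where 21 of the 23 were called higher. After quantile normalization only 2 were called lower, 2 were called higher and the median was -0.06, and with the replicate block 14 were called lower and 1 higher. Myl3, the ventricular essential light chain, averaged 3073 ± 251 FPKM in PE with 50 µM cells, 3131 ± 552 in 50 µM cells, 5454 ± 286 in PE cells and 1747 ± 267 in vehicle cells (SD, n = 3 each), an interaction of -1.67 ± 0.20 (limma adjusted p = 0.0002). Myom1, which crosslinks the M-band, had an interaction of -1.19 ± 0.17 (adjusted p = 0.001) and Mybpc3, the cardiac myosin-binding protein C, one of -0.77 ± 0.15 (adjusted p = 0.0067; 0.0544 after quantile normalization). Cardiac alpha-actin, Actc1, had one of -1.27 ± 0.20 (adjusted p = 0.0018; 0.365 after quantile normalization), and reads of close paralogs such as Acta1 and Actc1 could be shared between them by the counting.

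Of 23 fetal and hypertrophic genes, 8 were called lower and 0 higher (10 and 1 with the block), with a median of -0.46. After quantile normalization 6 were called lower and 0 higher, and the median was -0.22. Besides Acta1, Nppb, Xirp2, Fhl1 and Rcan1 the 8 were Csrp3, the muscle LIM protein (-1.34, limma adjusted p = 0.0089), and Fhl2, another LIM-domain protein (-1.13, adjusted p = 0.0035). The last was Ankrd1, the cardiac ankyrin repeat protein of mechanical stress (-0.86, adjusted p = 0.046). Ankrd1 stood at 4901, 5801 and 4629 FPKM in PE with 50 µM libraries, 2511, 3871 and 2411 in 50 µM libraries, 6996, 7972 and 7213 in PE libraries, and 2555, 2294 and 2042 in vehicle libraries. It rose with PE in both settings, by 0.83 log2 with 50 µM and 1.69 without, and its interaction lost the call in 11 of 22 alternatives, with an adjusted p of 0.66 after quantile normalization. The myosin heavy chains did not pass. Each of their rows shares its locus with another row, and the myosin genes have much sequence in common. Myh7, the fetal beta chain, stood at 141, 43.1 and 312 FPKM in PE with 50 µM libraries, 44.4, 37.1 and 104 in 50 µM libraries, 2782, 3019 and 3063 in PE libraries, and 1089, 916 and 935 in vehicle libraries. Its interaction was -0.45 ± 0.70 (adjusted p = 0.77), while its change with 50 µM Senexin A was -4.56 log2 in the presence of PE and -4.11 in its absence. Myh6, the adult alpha chain, had an interaction of -0.10 ± 0.97 (adjusted p = 0.97), and Atp2a2, the SERCA2 calcium pump, one of -0.22 ± 0.27 (adjusted p = 0.71).

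Genes of mitochondrial energy production formed the list with the largest share of calls. Of 29 tested subunits of oxidative phosphorylation, 16 had a called negative interaction and 0 a positive one, all 29 values lay below 0, and the median was -0.65. Over all genes tested 4826 of 10478 lay below 0. The median PE response of these subunits was -0.09 log2 with 50 µM and 0.61 without, and 26 of the 29 were called higher in 50 µM than in vehicle cells. Cox6a2, the muscle isoform of cytochrome c oxidase subunit 6A, shows the pattern, at 3541, 4448 and 3618 FPKM in PE with 50 µM libraries, 4167, 4965 and 4553 in 50 µM libraries, 3800, 3987 and 3389 in PE libraries, and 2246, 1634 and 1364 in vehicle libraries. Vehicle lay below all 9 other libraries, and the other groups overlapped or lay close together. Its interaction was -1.36 ± 0.24 (limma adjusted p = 0.0031). The complex I subunits Ndufs1 and Ndufv1 had interactions of -1.01 ± 0.18 and -1.0 ± 0.17 (adjusted p = 0.0042 and 0.0029). With the replicate block 28 were called, and quantile normalization left 15, with a median of -0.38. The count ran from 6 to 28 over all alternatives.

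The 20 tested genes of the tricarboxylic acid cycle and pyruvate dehydrogenase also all lay below 0, with a median of -0.60. After quantile normalization the median was -0.39 and 8 were called lower, and with the replicate block 19 were. Without either change 9 were called lower and 0 higher. They included Cs, citrate synthase (-0.81 ± 0.15, limma adjusted p = 0.0055), Mdh2, malate dehydrogenase (-0.83 ± 0.17, adjusted p = 0.0079), and Fh, fumarase (-0.96 ± 0.18, adjusted p = 0.0046). In fatty acid oxidation the median was -0.37, or -0.29 after quantile normalization. Of 32 genes 7 were called lower and 0 higher (14 and 1 with the block, 6 and 0 after quantile normalization). There the median PE response was -0.38 log2 with 50 µM, where 15 genes fell, and 0.08 without, where 7 rose and 6 fell. Acadl, the long-chain acyl-CoA dehydrogenase, averaged 351 ± 35.9 FPKM in PE with 50 µM cells, 477 ± 25.7 in 50 µM cells, 466 ± 27.3 in PE cells and 288 ± 33.3 in vehicle cells (SD, n = 3 each), an interaction of -1.15 ± 0.14 (adjusted p = 0.00028). Acot2, a mitochondrial acyl-CoA thioesterase, averaged 209 ± 47.2, 342 ± 37.4, 25.1 ± 0.213 and 16.9 ± 4.13 FPKM in the same order of groups, so the inhibitor raised it with and without PE while its PE response changed sign (-0.73 log2 with 50 µM, 0.57 without; interaction -1.30 ± 0.24, adjusted p = 0.005).

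In glycolysis and glucose uptake the median was -0.37, or -0.18 after quantile normalization. Of 24 genes 7 were called lower and 1 higher (12 and 1 with the block, 3 and 1 after quantile normalization). The higher one was Slc2a1. Eno3, the muscle enolase, averaged 57 ± 6.27 FPKM in PE with 50 µM cells, 24.4 ± 1.38 in 50 µM cells, 123 ± 26.1 in PE cells and 19.3 ± 2.01 in vehicle cells (SD, n = 3 each), an interaction of -1.39 ± 0.25 (limma adjusted p = 0.0037). Slc16a3, the lactate exporter MCT4, had an interaction of -1.35 ± 0.24 (adjusted p = 0.0035). Of 11 genes of phosphagen transfer 3 were called lower (6 with the block), among them Ckb, the brain creatine kinase (-0.92 ± 0.26, adjusted p = 0.041, lost in 11 of 22 alternatives).

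**Figure D3:**
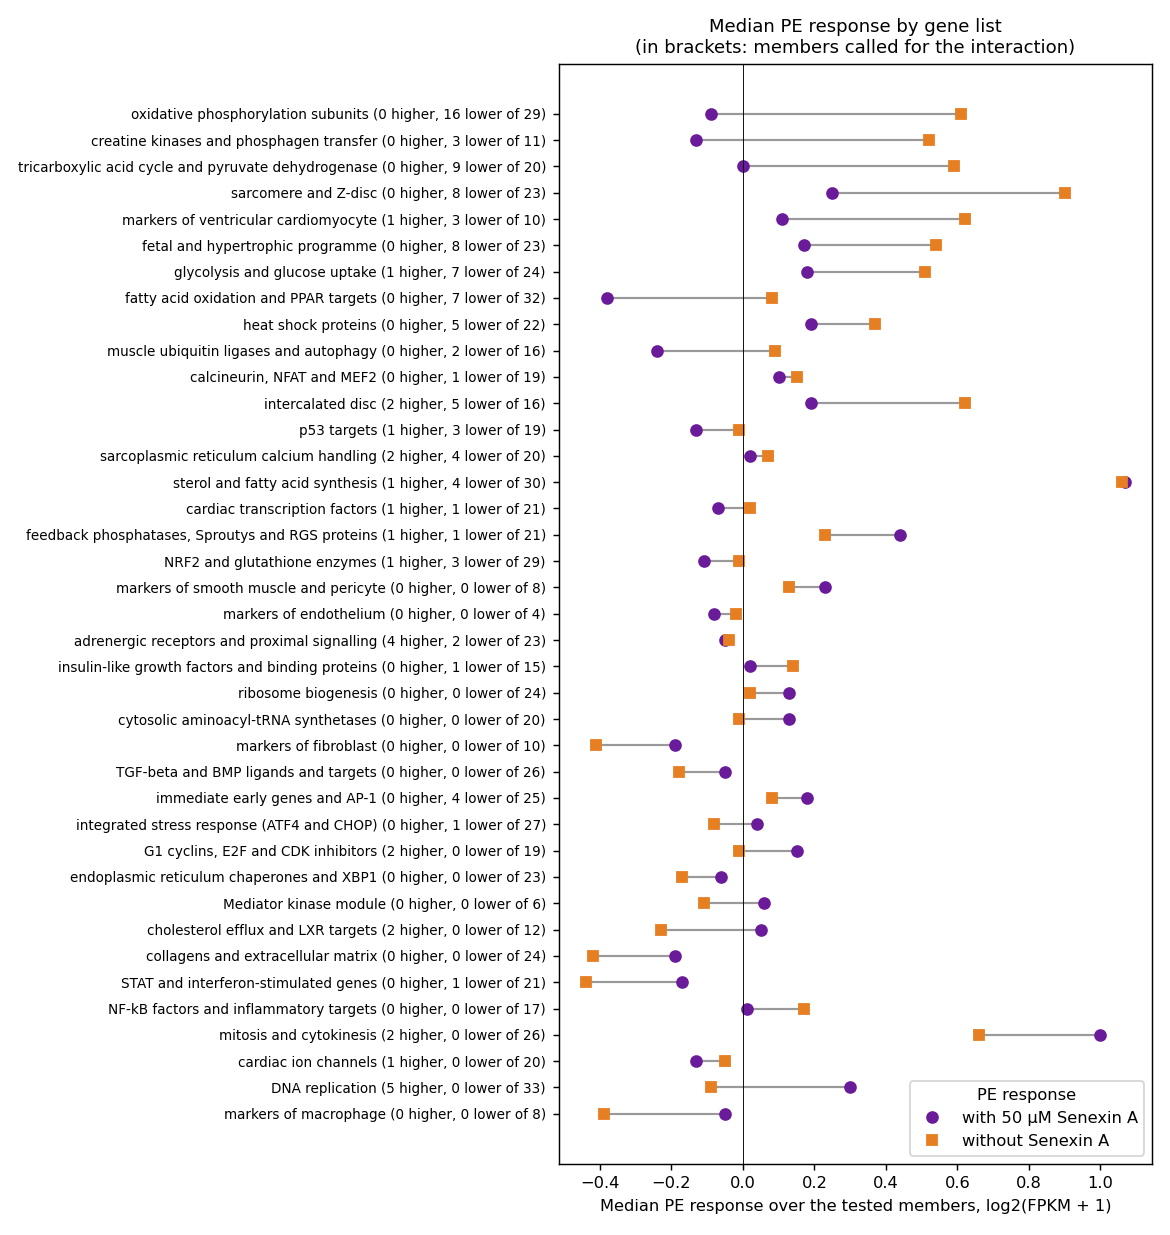
Median PE response of the tested members of each gene list with 50 µM Senexin A (circles) and without it (squares), on log2(FPKM + 1), with the members called for the interaction in brackets. Oxidative phosphorylation moves to -0.09 with 50 µM, against 0.61 without, whereas sterol synthesis has nearly equal medians of 1.07 and 1.06.

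Sterol and fatty acid synthesis kept its PE response. Of 30 tested genes 26 rose with PE under 50 µM and 26 rose without inhibitor, with medians of 1.07 and 1.06 log2. For the interaction 4 were called lower and 1 higher. Fdps, which makes farnesyl diphosphate, had an interaction of -1.04 ± 0.26 (limma adjusted p = 0.023), which lost its call in 5 of 22 alternatives (adjusted p = 0.0626 after quantile normalization). Ebp, the sterol isomerase, went the other way, at 31, 31.1 and 36.3 FPKM in PE with 50 µM libraries, 9.65, 10.3 and 16 in 50 µM libraries, 14.1, 15.1 and 14.7 in PE libraries, and 15.5, 10.5 and 9.76 in vehicle libraries. Only PE with 50 µM stood apart (interaction 1.11 ± 0.24, adjusted p = 0.013).

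All 26 tested genes of mitosis and cytokinesis were lower with 50 µM Senexin A, in the presence of PE and in its absence. All 26 rose with PE under 50 µM, and 25 of them without it, with medians of 1.00 and 0.66 log2. The interaction was called higher for 2 of them (4 with the block), with a median of 0.30. Top2a, the topoisomerase of replicating chromosomes, stood at 19.8, 16.5 and 16.7 FPKM in PE with 50 µM libraries, 5.62, 5.45 and 3.95 in 50 µM libraries, 50.1, 51.8 and 61.8 in PE libraries, and 34.7, 37.5 and 29.5 in vehicle libraries. PE raised it in both settings, while both groups with the inhibitor lay below both without (interaction 0.97 ± 0.20, limma adjusted p = 0.0093). In DNA replication 5 of 33 genes were called higher and 0 lower (8 higher with the block), with a median interaction of 0.39 and median PE responses of 0.30 with 50 µM and -0.09 without. Mcm5, a subunit of the replicative helicase, had an interaction of 0.86 ± 0.20 (adjusted p = 0.019; 0.053 without PE replicate 1 and 0.0501 without 50 µM replicate 2).

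The signalling chain below PE held calls in both directions. Of 23 adrenergic receptors and proximal signalling genes 4 were called higher and 2 lower, beside 2.24% higher and 4.76% lower over all genes tested. Adra1b encodes the alpha1B receptor, a member of the alpha1-adrenergic class that PE activates. It averaged 7.18 ± 1.53 FPKM in PE with 50 µM cells, 7.98 ± 1.34 in 50 µM cells, 4.93 ± 0.187 in PE cells and 9.33 ± 0.719 in vehicle cells (SD, n = 3 each). Its interaction of 0.66 ± 0.19 (limma adjusted p = 0.047) lost its call in 15 of 22 alternatives. Adrb1, the beta1 receptor, averaged 16.3 ± 1.1, 11.8 ± 0.912, 8.4 ± 0.95 and 11.3 ± 2.94 FPKM in the same order of groups (0.80 ± 0.21, adjusted p = 0.027, lost in 7 of 22). Among 25 immediate early genes 4 were called lower and 0 higher (5 and 4 with the replicate block), including Jund, an AP-1 subunit (-0.90 ± 0.16, adjusted p = 0.0039), Btg2, an antiproliferative gene (-0.85 ± 0.13, adjusted p = 0.0016), and Srf (-0.51 ± 0.10, adjusted p = 0.0049). Dusp8, a phosphatase of JNK and p38, averaged 25.4 ± 5.47 FPKM in PE with 50 µM cells, 18.9 ± 6.19 in 50 µM cells, 37.6 ± 6.34 in PE cells and 8.29 ± 0.26 in vehicle cells, an interaction of -1.60 ± 0.27 (adjusted p = 0.0029). Rcan1, a regulator of calcineurin, averaged 334 ± 62.9, 363 ± 68.7, 274 ± 7.12 and 116 ± 14.4 FPKM in the same order, an interaction of -1.36 ± 0.20 (limma adjusted p = 0.001).

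Of 22 heat shock genes 5 were called lower and 0 higher (8 and 0 with the replicate block), with a median of -0.23 that was 0 after quantile normalization. Hspb6, a small heat shock protein of muscle, averaged 430.1 ± 32.8 FPKM in PE with 50 µM cells, 413 ± 50 in 50 µM cells, 669.6 ± 72.3 in PE cells and 192 ± 25.1 in vehicle cells (SD, n = 3 each), an interaction of -1.74 ± 0.19 (limma adjusted p = 7.6e-05). The integrated stress response was high under 50 µM Senexin A irrespective of PE. Of 27 of its genes 26 were higher with the inhibitor in the presence of PE and 26 in its absence, and the interaction passed for 1, or with the replicate block for 5 higher and 2 lower. The gene passing without the block was Ppp1r15a, GADD34, the phosphatase subunit that reverses eIF2alpha phosphorylation (-0.80 ± 0.20, adjusted p = 0.023, lost in 3 of 22 alternatives). No interaction was called in limma among 23 endoplasmic reticulum chaperones, 20 tRNA synthetases, 24 ribosome biogenesis genes, 24 collagen and matrix genes, 26 TGF-beta genes, 17 NF-kB genes or 6 genes of the Mediator kinase module. At an unadjusted p under 0.05 these lists held 3, 2, 7, 0, 7, 2 and 1 genes, beside 2300 of all 10478 tested. With the replicate block 3, 1, 4, 2, 8, 2 and 0 were called, beside 1690 of all tested. Over all genes 7.01% were called without the block, so 0 calls in lists this short says little.

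The transcripts of the compound's targets had no called interaction. Cdk8 stood at 17.2, 17.7 and 13 FPKM in PE with 50 µM libraries, 12.6, 13.9 and 12 in 50 µM libraries, 13.2, 11.3 and 14.5 in PE libraries, and 13.5, 12.6 and 14.5 in vehicle libraries, and the groups overlapped. Its interaction was 0.35 ± 0.16 log2 (limma adjusted p = 0.21). Cdk19 had one of 0.20 ± 0.24 (adjusted p = 0.69), Ccnc, cyclin C, -0.03 ± 0.13 (adjusted p = 0.92), and Med12 and Med13 0.19 each (adjusted p = 0.36 and 0.53).

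Markers of cell types were counted beside these lists. Of the 10 ventricular myocyte markers 3 were called lower (Myl3, Actc1 and Mybpc3, also on the sarcomere list), or 5 with the block. A called higher value was found for 1 (Pln, whose row shares its locus with another), and the median was -0.49. After quantile normalization 1 was called lower and 2 higher, with a median of -0.1. The part of these markers in the results for contractile and energy genes was not tested. In limma no interaction was called among 10 fibroblast, 8 smooth muscle and pericyte, 4 endothelial and 8 macrophage markers, with medians of 0.10, -0.02, -0.01 and 0.51 and 0 genes at an unadjusted p under 0.05. Over all 10478 genes tested 7.01% were called, and 2300 had an unadjusted p under 0.05. Endothelial markers summed to 3.18 to 4.79 FPKM in PE with 50 µM libraries, 3.07 to 6.23 in 50 µM libraries, 9.9 to 11.2 in PE libraries and 10.1 to 11.7 in vehicle libraries. Macrophage markers summed to 22.1 to 243, 32.3 to 183, 20.2 to 91.7 and 39.6 to 123 FPKM in the same order of groups.

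At 10 µM Senexin A far fewer genes passed the same test. The interaction of PE and 10 µM was called for 32 genes (0.305%), 7 higher (0.0668%) and 25 lower (0.239%), in a comparison that shares the PE and vehicle libraries with that at 50 µM. The PE response at 50 µM minus that at 10 µM, in which PE and vehicle cancel, passed for 313 genes (2.99%), 95 higher (0.907%) and 218 lower (2.08%). Acta1 had PE responses of 4.09 log2 without inhibitor, 2.25 at 10 µM and 0.02 at 50 µM, each ± 0.18. Its level with PE did not follow that order. It averaged 5426 ± 569.6 FPKM in PE with 10 µM cells and 1169 ± 346 in 10 µM cells, against 3078 ± 287 in PE cells and 181 ± 33.8 in vehicle cells (SD, n = 3 each), so the smaller response at 10 µM went with a higher level in cells without PE. Its response at 50 µM was lower than that at 10 µM by 2.23 log2 (difference -2.23 ± 0.25, limma adjusted p = 0.00048). Tceal7 had responses of 3.46, 1.78 and -0.34, and differed between doses by -2.11 ± 0.42 (adjusted p = 0.015). For Xirp2, with 3.01, 1.41 and 0.78, and Nppb, with 3.37, 1.68 and 1.32, the dose difference did not pass (-0.63 ± 0.37, adjusted p = 0.39, and -0.36 ± 0.46, adjusted p = 0.73).

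**Figure D4:**
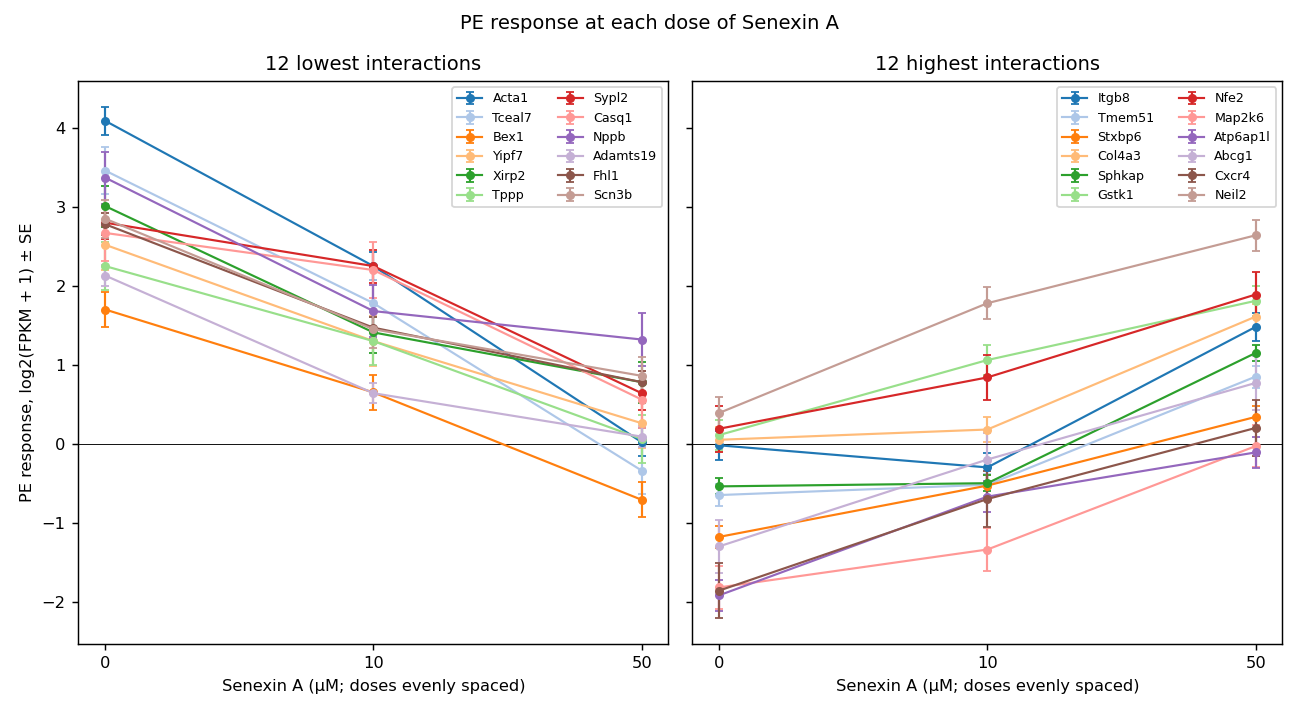
PE response (log2(FPKM + 1), ± SE) at 0, 10 and 50 µM Senexin A, with doses evenly spaced, for the 12 lowest and 12 highest interactions at 50 µM. On the left the interaction at 10 µM passed for Acta1, Adamts19 and Fhl1 and not for the 9 others; on the right Itgb8, Sphkap and Tmem51 have similar values at 0 and 10 µM and higher ones at 50 µM.

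Several genes differed between the doses with a response at 10 µM close to that without inhibitor. Sphkap had PE responses of -0.54 without inhibitor, -0.50 at 10 µM and 1.15 at 50 µM, each ± 0.10, and a dose difference of 1.66 ± 0.15 log2 (limma adjusted p = 2.8e-05). Itgb8 had -0.02, -0.30 and 1.48 (difference 1.77 ± 0.26, adjusted p = 0.0058), Col4a3 0.05, 0.18 and 1.61 (1.43 ± 0.23, adjusted p = 0.0059), and Slc16a3 1.96, 2.17 and 0.61 (-1.57 ± 0.24, adjusted p = 0.0058). For each of these 4 genes the interaction at 10 µM did not pass, with values of 0.04 ± 0.15, -0.28 ± 0.26, 0.13 ± 0.23 and 0.21 ± 0.24 (adjusted p = 0.98, 0.83, 0.93 and 0.87). Among the lists, the dose difference was called lower for 6 of 32 fatty acid oxidation genes and 6 of 24 glycolysis genes. It was called lower for 3 of 20 tricarboxylic acid cycle genes, 0 of 29 oxidative phosphorylation subunits and 0 of 23 sarcomere genes. Over all genes tested 2.08% were called lower, so 0 calls in lists this short says little. The median differences were -0.27, -0.44, -0.37, -0.36 and -0.04 log2 in the same order of lists, beside 0.02 over all genes.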

How the data were processed

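Polyadenylated RNA of 18 libraries of neonatal rat ventricular myocytes, 3 in each of 6 groups, was sequenced. Samples were grouped by their labels, and each column of the gene table by its name. The FPKM values (fragments per kilobase of transcript, scaled to library size) were deposited by the authors as 1 table with rn5 coordinates and a floor of 0.01, and the submitters' processing notes name Bowtie2, Cufflinks and rn5. Versions, annotation, strand setting and filters are not given in the sources used here. FPKM hold no counts, so log2(FPKM + 1) was tested with limma 3.58.1 (R 4.3.3; group means, all 18 libraries, variance trend, 12 residual degrees of freedom) and adjusted by Benjamini-Hochberg over the 10478 rows that reached 1 FPKM in 3 or more libraries. Genes with an adjusted p below 0.05 are called. Fold changes on this scale understate the change of low genes. The median SE was 0.167 log2 for the interaction and 0.118 for a single PE response.

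The genes, lists and tests were chosen with earlier results of these data known. Genes were named by rule: among called genes with a symbol, a locus of their own and a mean of at least 5 FPKM in 1 of the 4 groups, the 12 lowest and 12 highest interactions, up to 4 per list and up to 4 with opposite PE responses, plus a fixed panel; list members cited outside it were picked after their values were seen. Of the rows tested, 1000 share a locus with another row and are uncertain. Libraries with the same replicate number deviated together (45 pairs, correlations 0.213 to 0.587; different numbers -0.462 to 0.095), so the numbers pair the samples, though the labels do not say what they share. Alternatives changed the pseudocount, filter, scaling, variance model, block and libraries. The procedure was run on simulated data with noise drawn independently for each library, which leaves out the pairing by replicate number. Promoters came from RefSeq (GRCr8), matched by symbol for 81 of the 98 genes named by the rule. Some items that the rule names are not reported here.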

Additional observations from a re-analysis of the deposited data

Results flagged for a closer look

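The following values were picked out because the test of the difference between a PE response with and without Senexin A, or between doses, passed. The PE response with 50 µM Senexin A differed from that without it for 734 genes, the response with 10 µM differed from that without for 32, and the response at 50 µM differed from that at 10 µM for 313.

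Among single genes the PE response with 50 µM minus that without was -4.07 log2 for Acta1, -3.79 for Tceal7, -2.4 for Bex1, -2.25 for Yipf7, -2.24 for Xirp2, -2.2 for Tppp, -2.17 for Sypl2, -2.11 for Casq1, -2.05 for Nppb, -2.04 for Adamts19, -2.01 for Fhl1 and -1.99 for Scn3b. The difference was 2.24 log2 for Neil2, 2.07 for Cxcr4, 2.06 for Abcg1, 1.81 for Atp6ap1l, 1.79 for Map2k6, 1.71 for Nfe2, 1.7 for Gstk1, 1.69 for Sphkap, 1.56 for Col4a3, 1.52 for Stxbp6, 1.5 for Tmem51 and 1.49 for Itgb8. Each of these 24 genes had the same sign in all 3 replicate numbers. Those 3 values average to the interaction by which the genes were chosen, so the shared sign is no separate support.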

How the results depend on the processing

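Of the 98 genes named by the rule, 89 were called, 56 of the 89 kept the call in all alternatives that could be computed, and 0 changed direction while called. With the replicate number as a block, which uses the pairing seen in the data, the calls were 1690 for the interaction at 50 µM, 230 for that at 10 µM, 1147 for the dose difference and 2491 for PE with 50 µM; the block changed the call of no other named gene than Nppa. Array weights gave 1265, 86 and 496 for the first 3. Without a filter the interaction at 10 µM had 20 calls. With the compared groups alone the dose difference had 104 and PE with 50 µM 720. Leaving out 1 library gave 392 to 921 for the interaction at 50 µM, 13 to 34 at 10 µM, 121 to 460 for the dose difference, 945 to 1315 for PE with 50 µM, 2162 to 2846 for PE without, and 5247 to 5606 and 5738 to 6102 for the inhibitor with and without PE. Quantile normalization gave 826 calls, 41.0% of them higher, beside 32.0%. Uncalled values changed sign for Atp2a2 (0.18 after quantile normalization), Myh6 (0.15 likewise) and, when libraries were left out in turn, for Ccnc (-0.1 to 0.07; positive without PE replicate 2, replicate 3 of PE with 50 µM or 50 µM replicate 2), Cdk19 (-0.01 to 0.33; negative without 50 µM replicate 2), Myh6 (-0.98 to 0.98; positive without PE replicate 1, 50 µM replicate 2 or vehicle replicate 3) and Myh7 (-1.11 to 0.30; positive without replicate 2 of PE with 50 µM). The cause of these shifts was not tested. Read depth is unknown, so the precision of low genes cannot be bounded.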

Other observations

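Gene lists not described above also held called interactions, given as values beside the 2.24% called higher and 4.76% called lower over all genes tested. In calcium handling 4 of 20 genes were called lower and 2 higher. Casq2, the cardiac calsequestrin, averaged 557 ± 72.8 FPKM in PE with 50 µM cells, 556 ± 160 in 50 µM cells, 1402 ± 132 in PE cells and 676 ± 63.6 in vehicle cells (SD, n = 3 each), an interaction of -1.02 ± 0.24 log2 (limma adjusted p = 0.017). Hrc, the histidine-rich calcium-binding protein, had one of -1.03 ± 0.21 (adjusted p = 0.0077) and Jph2, junctophilin of the dyad, one of -0.74 ± 0.18 (adjusted p = 0.024, lost in 6 of 22 alternatives). At the intercalated disc 5 of 16 genes were lower and 2 higher, the higher ones being Gja1 and Cdh2, N-cadherin (0.55 ± 0.13, adjusted p = 0.022, lost in 4 of 22 alternatives), with a median of -0.13 that was 0.02 after quantile normalization. Of 16 muscle ubiquitin ligase and autophagy genes 2 were lower (7 with the replicate block), Fbxl22, an F-box protein of the sarcomere (-1.80 ± 0.22, adjusted p = 0.00026), and Trim72, the membrane repair protein MG53 (-1.43 ± 0.35, adjusted p = 0.023, lost in 2 of 22 alternatives). Of 20 ion channel genes 1 was called, Gja1, and with the replicate block 5 were higher and 4 lower.

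Of 19 p53 targets 3 were lower and 1 higher (5 and 1 with the block), with Gadd45a at -0.99 ± 0.17 (limma adjusted p = 0.0026) and Ccng1, cyclin G1, at -0.72 ± 0.16 (adjusted p = 0.014). Of 29 NRF2 and glutathione genes 3 were lower and 1, Gstk1, higher (6 and 2 with the block). Of 12 cholesterol efflux genes 2 were higher, Abcg1 and Abca1 (0.79 ± 0.20, adjusted p = 0.025, lost in 8 of 22 alternatives), and of 19 G1 genes 2 were higher, Cdkn1c and Cdk4, whose row shares its locus with another. Feedback regulators had 1 of 21 lower (Dusp8) and 1 higher (Rgs2, whose row shares its locus with another), or 2 and 3 with the block, and cardiac transcription factors 1 of 21 lower (Srf) and 1 higher (Hand2, 0.70 ± 0.18, adjusted p = 0.03, lost in 7 of 22 alternatives), or 5 and 3 with the block. The calcineurin list (Rcan1 of 19), the insulin-like growth factor list (Igfbp7 of 15, with a shared locus) and the interferon list (Ifit1 of 21) had 1 lower call each and 0 higher, which is near the share over all genes; with the block they had 1, 3 and 1 lower and 0, 2 and 2 higher.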
